A study of Mus musculus with 9 samples.

Results

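The 10 genes described here encode the core proteins of triglyceride breakdown and of the lipid droplet surface in adipocytes. They are the lipases Pnpla2, Lipe and Mgll, the Pnpla2 cofactors Abhd5 and G0s2, the perilipins Plin1, Plin2, Plin4 and Plin5, and the droplet fusion protein Cidec. They were chosen by gene symbol, with earlier results of these data known. Each of the deposited tables held all 10, and together the tables list 29386 gene identifiers. All 10 passed the filter on low values in every experiment. RNA sequencing of mouse brown adipose tissue (BAT) and of primary brown adipocytes gave 9 libraries in 3 separate experiments. In the tissue experiment, 2 Setdb1 AKO mice (Setdb1 fl/fl; Adipoq-Cre+) were set against 2 control mice (Setdb1 fl/fl; Adipoq-Cre-). Setdb1 encodes a histone H3 lysine methyltransferase linked to silent chromatin, and Adipoq-Cre is a recombinase driven by the adiponectin promoter, which is active in adipocytes. In the 4-OHT experiment, Setdb1 flox/flox; Rosa26Cre-ERT2 cells, whose Cre is switched on by 4-hydroxytamoxifen (4-OHT), gave 1 library after 4-OHT at 1 μM and 1 after its ethanol vehicle (ETOH). In the siRNA experiment, 2 libraries of primary brown adipocytes given siRNA against Setdb1 (siSetdb1) were set against 1 library given the control siRNA siNC.

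Brown adipocytes keep triglyceride in many small droplets and burn the fatty acids that lipolysis releases. ATGL, the protein of Pnpla2, removes the first fatty acid from triglyceride, hormone-sensitive lipase, the protein of Lipe, acts on the diglyceride that remains, and monoglyceride lipase, the protein of Mgll, completes the step to glycerol. ABHD5 binds and activates ATGL, G0S2 binds and inhibits it, and perilipin 1 holds ABHD5 at the droplet until adrenergic signalling through protein kinase A releases it.

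The libraries held between 15979479 and 16940622 reads on genes in BAT, 30176359 in 4-OHT and 29911734 in ETOH cells, and between 17593799 and 18468152 in siRNA cells. Setdb1 read 156 and 191 normalised counts (reads scaled by 1 factor per library by the authors) in Setdb1 AKO BAT, against 455 and 473 in control BAT (log2 fold change -1.42; limma, adjusted p = 0.0216). It had 620 reads in 4-OHT and 1070 in ETOH cells, and 371 and 399 normalised counts in siSetdb1 against 784 in siNC cells (log2 fold change -1.02; limma, adjusted p = 0.0526). These values sum the whole gene and do not separate the floxed part. The control mice carry no Cre, so an effect of the Cre itself and the loss of Setdb1 cannot be told apart, and the same holds for 4-OHT as a drug. The prefix TN_CE of the BAT labels, the age and sex of the mice, and whether the siSetdb1 libraries came from separate cultures or from the same siRNA were not stated, so a p-value here speaks of how far these libraries spread and of nothing wider. Adipocyte markers were present in every library, with summed levels of 10428 to 13631 CPM (reads scaled to the library total) in BAT, 6080 and 7335 in the cells of the 4-OHT experiment and 10814 to 11141 in siRNA cells. In all these bulk samples, fewer cells of a type and less RNA per cell cannot be told apart.

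Levels per transcript length placed Pnpla2 highest of the 10 genes in every group. In TPM, which scales reads to transcript length and library total, Pnpla2 read 2917 and 3011 in Setdb1 AKO BAT, against 3079 and 2835 in control BAT. In control BAT the order of mean TPM was Pnpla2, Plin2, Cidec, Plin1, Lipe, Plin4, G0s2, Mgll, Plin5 and Abhd5, the last at 57.0 ± 4.89 TPM (SD, n = 2 mice). The ranges of Plin1 and Lipe, of Plin4 and G0s2, and of Mgll and Plin5 overlapped there, so these neighbours did not differ beyond their spread. In Setdb1 AKO BAT the same gene stood first and the same gene last, and G0s2 had a mean of 634 ± 15.2 TPM (SD, n = 2 mice), beside Plin1 at 640.0 ± 11.6. The ranges of Plin2 and Cidec, of Lipe and Plin1, of Plin1 and G0s2 and of Plin4 and Mgll overlapped in that group. Abhd5 was also lowest in the siRNA experiment, with 63.9 and 76.7 TPM in siSetdb1 and 70.8 TPM in siNC cells.

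G0s2 had the widest range of levels between the experiments. It read 623 and 645 TPM in Setdb1 AKO and 348 and 378 TPM in control BAT. It stood last among the 10 genes in the 4-OHT experiment, at 65.6 TPM in 4-OHT and 52.7 TPM in ETOH cells. It stood behind Pnpla2 alone in the siRNA experiment, at 1424 and 1380 TPM in siSetdb1 and 1354 TPM in siNC cells. The tables were scaled separately, so these levels across experiments are a description, and the cells of both culture experiments carry the same cell type label. Cidec also differed in this way, with 1308 TPM in 4-OHT and 948 TPM in ETOH cells, but 317 and 425 TPM in siSetdb1 and 325 TPM in siNC cells. Marker levels differed too. Macrophage markers summed to 2152 CPM in 4-OHT and 3810 in ETOH cells, against 59.8 and 52.6 in siSetdb1 and 67.4 in siNC cells. Fibroblast and preadipocyte markers summed to 10833 in 4-OHT and 12433 in ETOH cells, against 3074 and 3352 in siSetdb1 and 3379 in siNC cells. Brown adipocyte markers summed to 1335 in 4-OHT and 709 in ETOH cells, against 2101 and 2267 in siSetdb1 and 2255 in siNC cells. The part of these cell types was not tested.

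**Figure D1:**
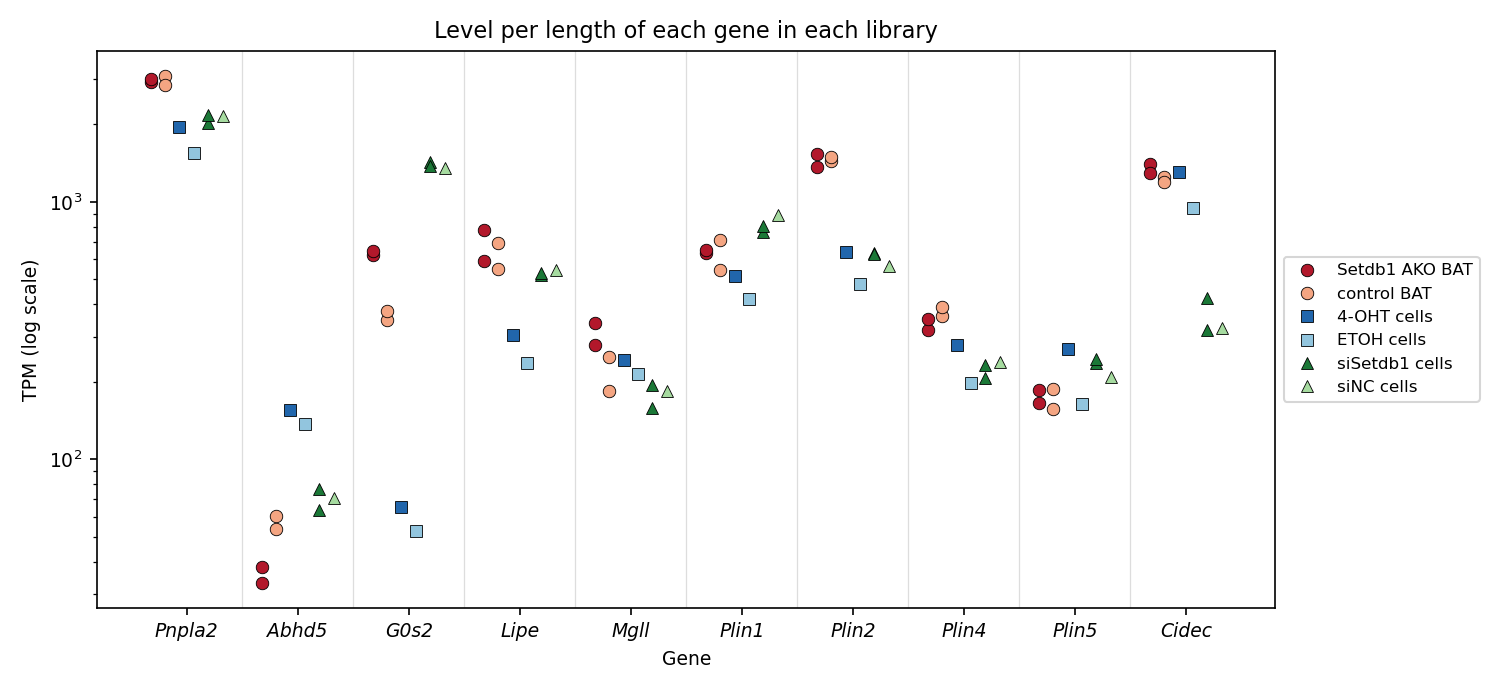
Level of each of the 10 genes in each of the 9 libraries, in TPM on a log scale; circles are BAT, squares the 4-OHT experiment and triangles the siRNA experiment. Pnpla2 stands highest throughout, and G0s2 spans from 52.7 TPM in ETOH cells to 1424 TPM in a siSetdb1 library.

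Perilipin transcripts were made up differently in tissue and in culture. Plin2, the perilipin found in most cell types, supplied 53.8% and 55.9% of the summed TPM of the 5 perilipin genes (Plin3 included) in Setdb1 AKO BAT, against 52.5% and 57.0% in control BAT. Plin1, the adipocyte perilipin, led in the siRNA experiment, with 39.7% and 40.5% in siSetdb1 and 44.7% in siNC cells. In the 4-OHT experiment Plin2 supplied 36.3% in 4-OHT and 36.5% in ETOH cells, and Plin1 supplied 29.2% in 4-OHT and 31.9% in ETOH cells. Plin5, the perilipin of oxidative tissues that sits between droplets and mitochondria, supplied 15.3% in 4-OHT and 12.5% in ETOH cells, against 5.95% to 7.30% in the BAT libraries of both genotypes.

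**Figure D2:**
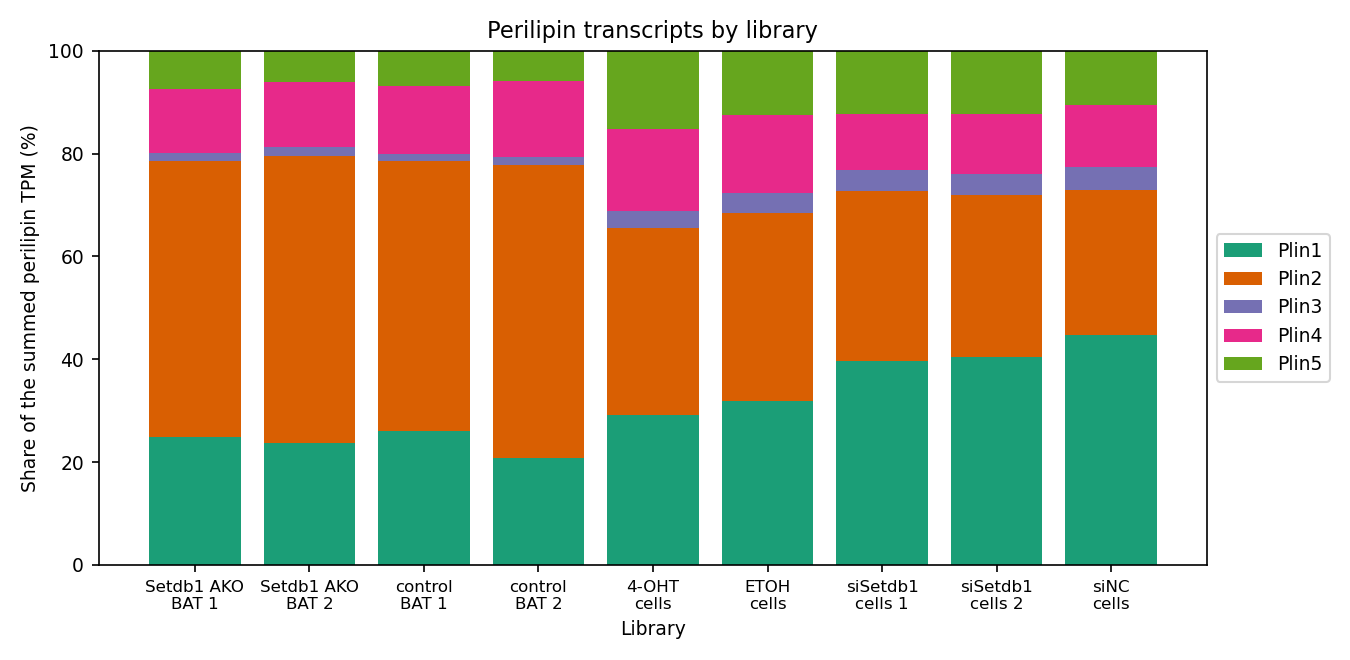
Share of each perilipin gene in the summed perilipin TPM of each library, in percent. Plin2 is the largest share in all 4 BAT libraries, and Plin1 in the 3 libraries of the siRNA experiment.

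Setdb1 AKO BAT was compared with control BAT to ask which of these genes differ when Setdb1 is deleted in adipocytes. G0s2, the ATGL inhibitor, was higher in Setdb1 AKO BAT and was the only one of the 10 genes to pass the test. Over all genes tested, 1.68% were called in either direction and 1.00% were called higher at an adjusted p below 0.05 in limma. Abhd5, the ATGL activator, was lower in both Setdb1 AKO libraries, and Mgll was higher in both, but neither passed. Pnpla2 itself, Lipe, Cidec and the 4 perilipins had fold changes between 0.955 and 1.19. The median log2 fold change of the 10 genes was 0.15, with 8 above 0 and 2 below, beside a median of 0.01 over all genes tested. Both Setdb1 AKO libraries lay above both control libraries for 5 of the 10 genes and below both for 1, while 25.1% and 24.9% of all genes tested did so.

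The transcripts that set ATGL activity are given first. G0s2 (ENSMUSG00000009633, GRCm38 chr1:193272161-193273217, minus strand) read 4113 and 3779 normalised counts in Setdb1 AKO BAT, against 1919 and 2273 in control BAT. Both Setdb1 AKO mice stood well above both control mice, with no overlap. The log2 fold change was 0.92 (SE 0.16, 95% interval 0.55 to 1.29; limma, adjusted p = 0.0424), or 1.88-fold. In the authors' deposited table its adjusted p is 4.14e-04, in a table where 2.54% of genes are below 0.05. The fold change stayed between 0.79 and 1.04 on the log2 scale over 13 alternative settings, but the call was kept in 7 of them. It was lost when any 1 mouse was left out, with limma adjusted p-values of 0.0697 and 0.0677 on leaving out Setdb1 AKO mouse 1 or 2 and of 0.320 and 0.262 on leaving out control mouse 1 or 2. It was also lost when low genes were not filtered (limma, adjusted p = 0.234).

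Abhd5 (ENSMUSG00000032540, GRCm38 chr9:122351608-122381524, plus strand) read 1502 and 1531 normalised counts in Setdb1 AKO BAT, against 2279 and 2203 in control BAT. The mice of each genotype lay close together and the genotypes did not overlap. The log2 fold change of -0.56 (SE 0.14, 95% interval -0.89 to -0.24) did not pass (limma, adjusted p = 0.101), and it was called in none of the 13 alternatives. An antisense gene, A730085K08Rik, shares 16.0% of the Abhd5 exon bases and had at most 14 reads in a BAT library. The strand setting was not given, so this count does not bound antisense reads in the shared bases. Pnpla2 (ENSMUSG00000025509, GRCm38 chr7:141455198-141460743, plus strand) read 66730 and 61172 normalised counts in Setdb1 AKO BAT, against 58836 and 59123 in control BAT. Both Setdb1 AKO values were higher by a small margin (log2 fold change 0.12, 95% interval -0.48 to 0.71; limma, adjusted p = 0.858), so the interval holds changes of up to 1.64-fold higher and down to 0.716-fold.

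Set against Pnpla2, the inhibitor and the activator stood apart in the genotypes. G0s2 had 21.4 and 21.4 TPM for every 100 TPM of Pnpla2 in Setdb1 AKO BAT, against 11.3 and 13.3 in control BAT. Abhd5 had 1.14 and 1.27 TPM for every 100 TPM of Pnpla2 in Setdb1 AKO BAT, against 1.96 and 1.89 in control BAT. The G0s2 to Abhd5 ratio of TPM was 17.8 ± 1.30 in Setdb1 AKO and 6.41 ± 0.918 in control BAT (SD, n = 2 mice each; exact two-sided permutation p = 0.333, the smallest that 2 against 2 mice can give). These are ratios of transcripts and not of proteins, and the pair was singled out after the values were seen.

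**Figure D3:**
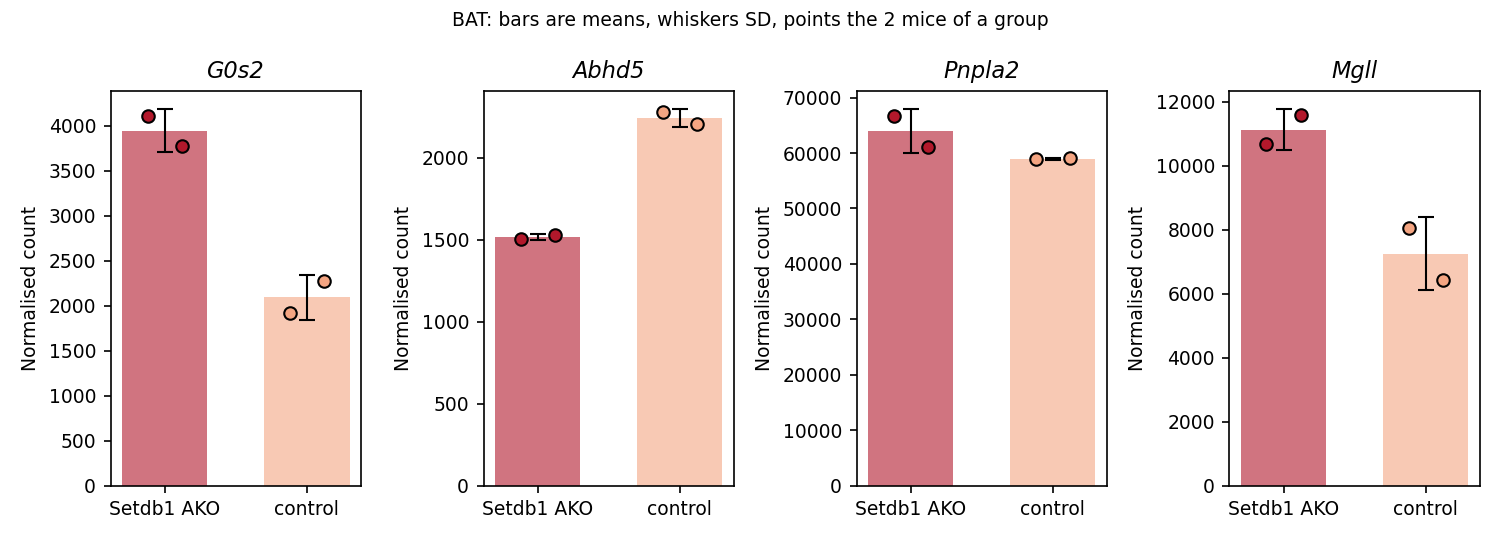
Normalised counts of G0s2, Abhd5, Pnpla2 and Mgll in BAT; bars are means, whiskers SD and points the 2 mice of each genotype, Setdb1 AKO left of control, with each axis starting at 0. G0s2 and Mgll are higher and Abhd5 is lower in both Setdb1 AKO mice, and only G0s2 passed the test.

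The stretches upstream of these 3 genes are shown because the inhibitor was higher, the activator lower and the lipase nearly even in Setdb1 AKO BAT. They come from RefSeq (GRCm38.p6), run 5′ to 3′ on the strand of the gene, and leave out bases that GENCODE places in an exon. Capitals mark matches to the GC box GGGCGG and to the nuclear receptor core motif AGGTCA, on either strand. The G0s2 stretch holds no match.
Pnpla2 (chr7:141454938-141455187, plus strand): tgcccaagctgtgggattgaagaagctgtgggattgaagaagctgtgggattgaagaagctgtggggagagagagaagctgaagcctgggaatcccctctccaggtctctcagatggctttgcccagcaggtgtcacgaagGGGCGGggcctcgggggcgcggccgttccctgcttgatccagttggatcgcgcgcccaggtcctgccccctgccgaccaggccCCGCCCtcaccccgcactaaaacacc
Abhd5 (chr9:122351366-122351607, plus strand): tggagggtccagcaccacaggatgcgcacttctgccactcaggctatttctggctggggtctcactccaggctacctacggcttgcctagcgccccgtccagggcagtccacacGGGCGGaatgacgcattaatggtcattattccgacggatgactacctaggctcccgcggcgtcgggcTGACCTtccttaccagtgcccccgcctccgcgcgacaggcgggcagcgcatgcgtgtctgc
G0s2 (chr1:193273218-193273337, minus strand): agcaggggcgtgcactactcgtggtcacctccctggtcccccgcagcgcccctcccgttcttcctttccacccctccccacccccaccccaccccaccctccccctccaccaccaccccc

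In the RefSeq windows of 250 bases before a start, all 10 genes were matched, with 14 windows in all. The PPAR response element, a pair of core motifs in tandem with 1 base between them, was in 0 of these on either strand and in 0.0335% of 32851 promoters of the mouse genome. The core motif alone was in the windows of Plin2, Plin5 and Abhd5, and in 14.0% of all promoters. A GC box was found for Plin5, Pnpla2, Lipe, Mgll, Abhd5 and G0s2, and in 32.7% of all promoters. These shares are per window, while Plin5, Lipe, Mgll and Cidec have 2 windows each. The Lipe window with GC boxes lies in exon bases throughout (250), and that of Mgll holds 226 exon bases. The windows of the 10 genes ran from 52.8% to 74.8% G and C, beside a median of 52.4% over all promoters. The G0s2 match lies 18 to 13 bases before the RefSeq start, outside the stretch printed. Such a match describes letters and no binding was measured.

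The downstream lipases followed. Mgll (ENSMUSG00000033174, GRCm38 chr6:88724412-88828360, plus strand) read 10679 and 11576 normalised counts in Setdb1 AKO BAT, against 8048 and 6435 in control BAT. Both Setdb1 AKO mice were higher, with no overlap, and the log2 fold change was 0.63 (SE 0.18, 95% interval 0.20 to 1.06; limma, adjusted p = 0.145). DESeq2 on recovered reads gave an adjusted p of 0.0495 and the authors' deposited table gives 0.0484, so Mgll stood on either side of the threshold with the tool. Lipe (ENSMUSG00000003123, GRCm38 chr7:25379527-25398710, minus strand) read 26397 and 30915 normalised counts in Setdb1 AKO BAT, against 25811 and 22249 in control BAT. The Setdb1 AKO values were higher by little more than the gap between mice of 1 genotype (log2 fold change 0.25, 95% interval -0.25 to 0.76; limma, adjusted p = 0.587). The antisense gene 4732471J01Rik shares 15.6% of the Lipe exon bases and had at most 129 reads in a BAT library.

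The droplet coat genes were close to even between the genotypes. Plin1 (ENSMUSG00000030546, GRCm38 chr7:79720218-79732903, minus strand), the gatekeeper of lipolysis, read 22246 and 20273 normalised counts in Setdb1 AKO BAT, against 20930 and 17524 in control BAT. Plin2 (ENSMUSG00000028494, GRCm38 chr4:86648386-86670060, minus strand) read 36429 and 36221 normalised counts in Setdb1 AKO BAT, against 31955 and 36363 in control BAT. Both ranges overlapped, with log2 fold changes of 0.15 (95% interval -0.32 to 0.62) and 0.09 (95% interval -0.43 to 0.61).

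Plin4, a perilipin of adipocytes and muscle with a long repeat region, and Plin5 are neighbours on chromosome 17, 1798 bp apart and both on the minus strand. Plin4 (ENSMUSG00000002831, GRCm38 chr17:56100591-56109803) read 13914 and 13596 normalised counts in Setdb1 AKO BAT, against 13243 and 15554 in control BAT. Plin5 (ENSMUSG00000011305, GRCm38 chr17:56111601-56117596) read 2937 and 2315 normalised counts in Setdb1 AKO BAT, against 2465 and 2256 in control BAT. The genotypes overlapped for both genes, and their log2 fold changes were -0.06 and 0.14. Cidec (ENSMUSG00000030278, GRCm38 chr6:113424634-113435760, minus strand), which joins droplets into larger ones, read 19675 and 16111 normalised counts in Setdb1 AKO BAT, against 14711 and 15300 in control BAT. Its 2 Setdb1 AKO mice differed from each other by more than the lower of them did from control (log2 fold change 0.25, 95% interval -0.21 to 0.70; limma, adjusted p = 0.556).

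**Figure D4:**
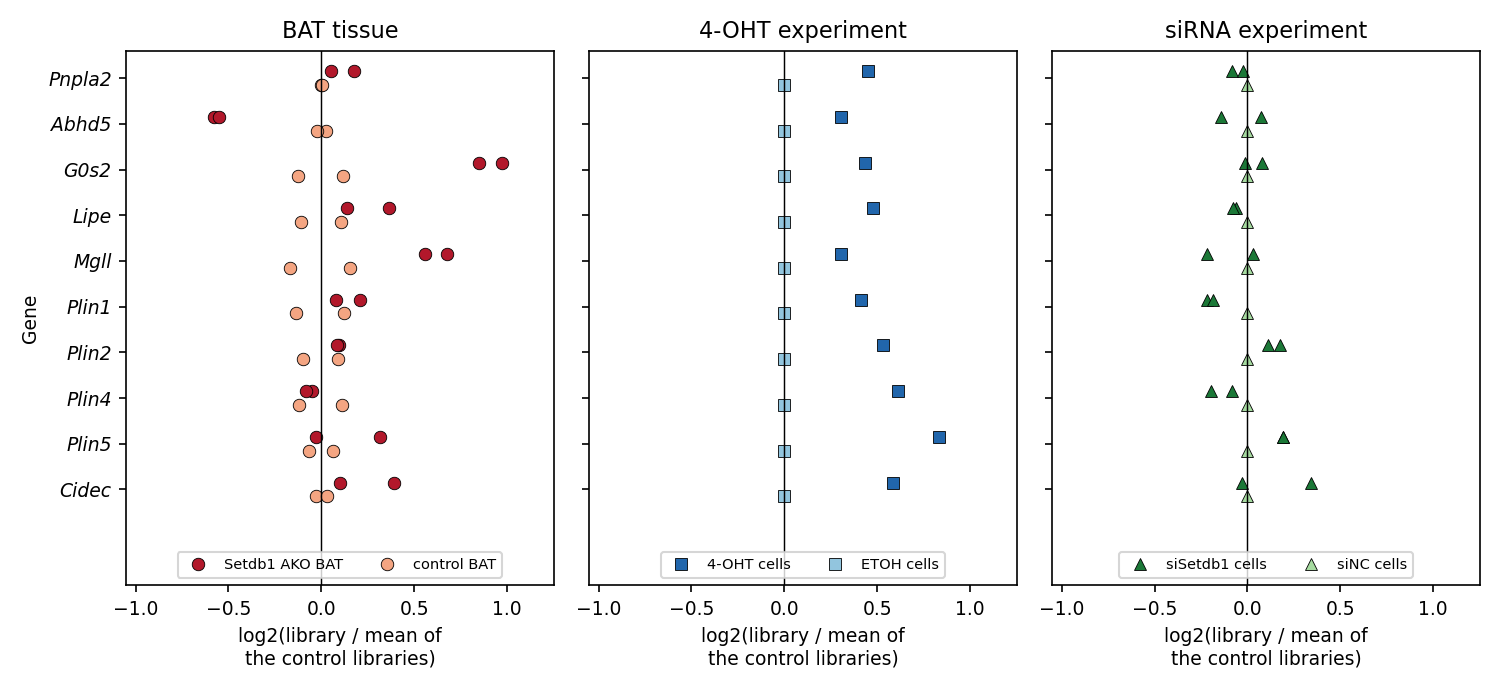
Value of each library over the mean of its control libraries, on the log2 scale, for the 10 genes in BAT, in the 4-OHT experiment and in the siRNA experiment; the upper point or points of each gene are the libraries with Setdb1 deleted or knocked down. In BAT only G0s2, Abhd5 and Mgll lie away from control by 0.5 or more in both mice, in the 4-OHT cells all 10 ratios lie above 0, and in siSetdb1 cells the points scatter about 0.

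Other genes of droplets and lipolysis were counted in 4 lists of textbook genes. Among 17 measured droplet proteins beyond the 10 genes, none was called higher and 1 was called lower in BAT, and the median log2 fold change was 0.10. That gene was Acsl3, an acyl-CoA synthetase of the endoplasmic reticulum and of nascent droplets, with 537 and 468 normalised counts in Setdb1 AKO BAT, against 952 and 1150 in control BAT. Its log2 fold change was -1.06 (SE 0.17; limma, adjusted p = 0.0353). The call was kept in 8 of 13 alternatives. It was lost when low genes were not filtered (limma, adjusted p = 0.234), on leaving out Setdb1 AKO mouse 1 (0.0512) or 2 (0.0888), and on leaving out control mouse 1 (0.225) or 2 (0.310). Hilpda, another ATGL inhibitor, was next by p, with 1012 and 1451 normalised counts in Setdb1 AKO BAT, against 625 and 859 in control BAT (log2 fold change 0.72; limma, adjusted p = 0.174). That value ran from 0.46 without Setdb1 AKO mouse 2 to 0.98 without Setdb1 AKO mouse 1.

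None of the 12 other lipases, cofactors and product handling genes passed in BAT by limma, and their median log2 fold change was 0.16. Lipa, the lysosomal acid lipase, had the smallest p, with 2594 and 2847 normalised counts in Setdb1 AKO BAT, against 1711 and 1583 in control BAT (log2 fold change 0.72; limma, adjusted p = 0.0682). Ddhd2, a phospholipase that can also cleave triglyceride, read 4180 and 3535 in Setdb1 AKO BAT, against 6463 and 5054 in control BAT (-0.57; limma, adjusted p = 0.177).

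Neither list of signalling genes held a call in BAT by limma. The 12 genes of lipolytic signalling had a median log2 fold change of -0.04. They include regulatory subunits and Npr3, a clearance receptor for natriuretic peptides, so not all of them drive lipolysis. Adrb1, a beta-adrenergic receptor, read 607 and 403 normalised counts in Setdb1 AKO BAT, against 794 and 847 in control BAT (-0.73; limma, adjusted p = 0.149). Prkaca, the catalytic subunit of protein kinase A, read 7409 and 6598 in Setdb1 AKO BAT, against 5299 and 5130 in control BAT (0.42; limma, adjusted p = 0.223). Adrb1 was lower and Prkaca higher in both Setdb1 AKO mice, without overlap, and the log2 fold change of Adrb1 was -1.02 without Setdb1 AKO mouse 1 and -0.43 without Setdb1 AKO mouse 2.

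The 10 genes that restrain lipolysis had a median of 0.20. Adora1, the receptor through which adenosine restrains lipolysis, read 1399 and 1734 in Setdb1 AKO BAT, against 936 and 861 in control BAT (0.79; limma, adjusted p = 0.0702). Irs1, an adaptor of the insulin receptor, read 667 and 653 in Setdb1 AKO BAT, against 1293 and 942 in control BAT (-0.74; limma, adjusted p = 0.109). DESeq2 called Irs1 lower (adjusted p = 0.0361) and Adora1 (adjusted p = 0.00963) and Lipa (adjusted p = 0.0105) higher, which limma did not.

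Markers of other cell types were set beside these values. Red cell transcripts were higher in both Setdb1 AKO mice, with summed levels of 794 and 781 CPM in Setdb1 AKO BAT, against 529 and 588 in control BAT, and all 5 genes of that list were above control on average while none was called. Fibroblast and preadipocyte markers summed to 687 and 961 CPM in Setdb1 AKO BAT, against 805 and 694 in control BAT, with 9 of 10 genes higher on average and Pi16, a marker of adipose progenitors, called higher (log2 fold change 2.87; limma, adjusted p = 0.0327). Macrophage markers summed to 243 and 299 CPM in Setdb1 AKO BAT, against 357 and 212 in control BAT, and overlapped. Muscle markers reached 31.8 CPM in control 2 alone, where only Myh2 of 7 genes was at 0, against 2.54 to 6.94 CPM in the other BAT libraries. The part of these cell types in the values above was not tested.

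In the 4-OHT experiment 1 library stood against 1, so no test was possible and every value describes that pair of libraries. All 10 genes were higher in 4-OHT than in ETOH cells. The log2 ratios of TMM-scaled CPM ran from 0.30 for Mgll to 0.83 for Plin5, with a median of 0.47, beside a median of 0.01 over all genes with at least 50 reads. Of the 10 genes, 3 were at least 1.5-fold higher and none was that much lower, while 4.21% of all genes were at least 1.5-fold higher, 6.12% were at least 1.5-fold lower and 51.7% had a ratio above 0. A ratio at least as high as that of Mgll, the lowest of the 10, was found in 14.4% of all genes.

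Plin5, Plin4, Cidec and Plin2 had the highest ratios of the 10 genes. Plin5 had 5123 reads in 4-OHT and 2986 in ETOH cells, a ratio of 1.78 (log2 0.83, 95% interval 0.77 to 0.90). Plin4 had 14716 reads in 4-OHT and 10001 in ETOH cells, a ratio of 1.53. Cidec had 22175 reads in 4-OHT and 15329 in ETOH cells (log2 ratio 0.59). These 3 genes reached the 1.5-fold mark, though Cidec lies on it. With CPM not scaled by TMM, the log2 ratios were 0.77 for Plin5, 0.54 for Plin4 and 0.52 for Cidec, and Plin5 alone of the 10 genes stayed past the mark. Plin2 had 20479 reads in 4-OHT and 14700 in ETOH cells, a ratio of 1.45, and Plin1 had 21812 in 4-OHT and 17006 in ETOH cells, a ratio of 1.33. Intervals here are exact and cover counting error only, not the difference between cultures.

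The lipases and their cofactors had ratios between 1.23 and 1.39. Pnpla2 had 53701 reads in 4-OHT and 40771 in ETOH cells, a ratio of 1.37, and Lipe had 16295 in 4-OHT and 12123 in ETOH cells, a ratio of 1.39. Mgll had 11254 reads in 4-OHT and 9480 in ETOH cells, a ratio of 1.23, and Abhd5 had 8508 in 4-OHT and 7125 in ETOH cells, a ratio of 1.24. Activator, lipase and inhibitor were all higher in this pair of libraries. G0s2 had few reads, 522 in 4-OHT and 400 in ETOH cells, and its ratio of 1.35 had the widest interval (log2 0.44, 95% interval 0.25 to 0.63). G0s2 for every 100 TPM of Pnpla2 was 3.37 in 4-OHT and 3.40 in ETOH cells, and Abhd5 was 8.03 in 4-OHT and 8.86 in ETOH cells. Together the 10 genes took 0.579% of the reads on genes in 4-OHT and 0.434% in ETOH cells.

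**Figure D5:**
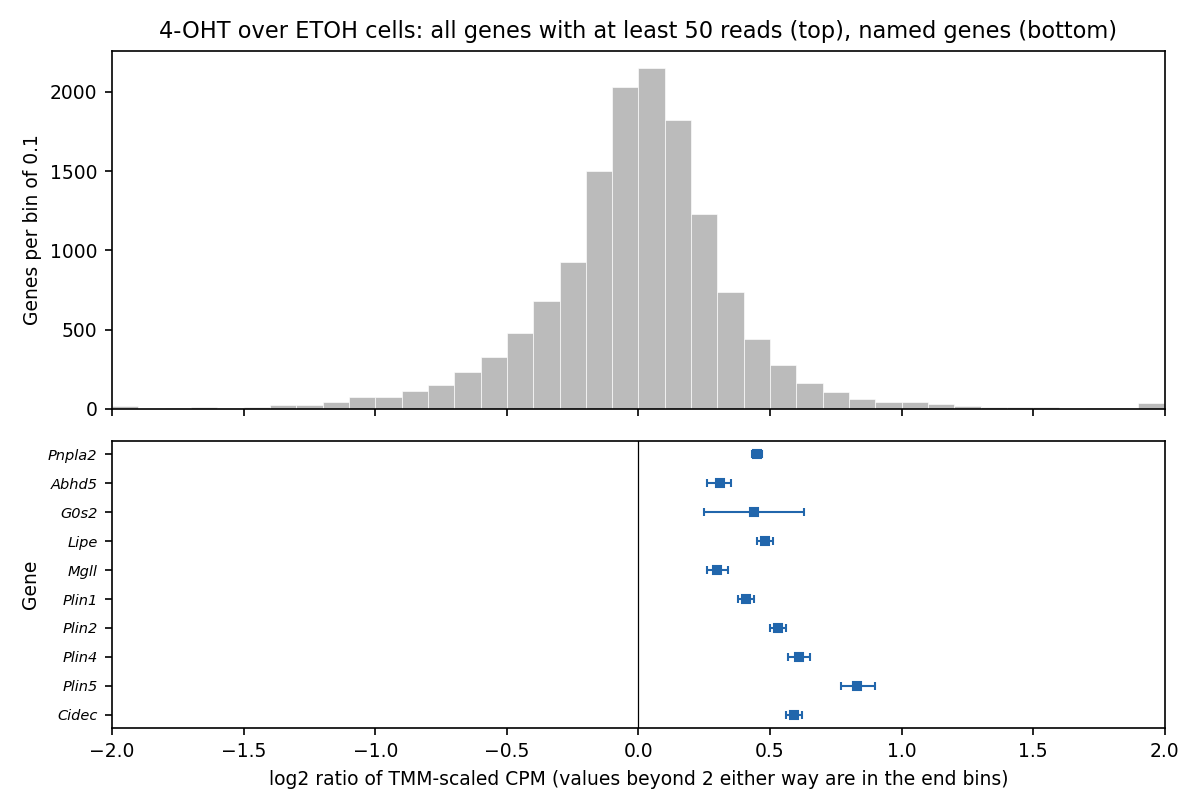
Log2 ratio of 4-OHT over ETOH cells for all genes with at least 50 reads (top, genes per bin of 0.1) and for the 10 genes with exact 95% counting intervals (bottom). The 10 ratios lie between 0.30 and 0.83, to the right of the middle of all genes, whose median is 0.01.

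On each side of the 10 genes, the nearest gene without overlap that passed the BAT filter was taken, which need not be the adjacent gene. Those with at least 50 reads here had log2 ratios from -0.79 for Ceacam1, 62997 bp from Lipe, to 0.99 for Lrg1, with no common direction. Lrg1, which lies 2082 bp from Plin5 on the side away from Plin4, stood highest, and Pex11a, a peroxisome division gene 3054 bp from Plin1, had 0.68, while Kif7, on the other side of Plin1, had -0.26. Cracr2b near Pnpla2 had 0.59 and Jagn1 near Cidec had 0.50, and the genes taken for Plin2, Haus6 and Dennd4c, had 0.12 and 0.01. The other lists were higher as well. Their median log2 ratio was 0.18 for 16 measured droplet proteins and 0.38 for 12 other lipases and handling genes. It was 0.15 for 12 genes of lipolytic signalling, Npr3 included, and 0.38 for 10 genes that restrain lipolysis. No gene of these lists was 1.5-fold lower, and 2, 2, 2 and 3 of them were 1.5-fold higher.

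The 2 most abundant genes of each list had log2 ratios of at most 0.44. Cavin1 and Cav1, which form the caveolae of the plasma membrane, had log2 ratios of 0.20 and 0.38. Fabp4, the fatty acid carrier of adipocytes, and Lpl, lipoprotein lipase, had 0.35 and 0.27. Prkar2b and Prkar1a, regulatory subunits of protein kinase A, had 0.18 and -0.06, and Pde3b, the phosphodiesterase through which insulin lowers cyclic AMP, had 0.44, beside 0.32 for Akt2, a kinase of the insulin pathway.

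Cell type markers differed between these 2 libraries. Adipocyte markers summed to 7335 CPM in 4-OHT and 6080 in ETOH cells, and brown adipocyte markers to 1335 in 4-OHT and 709 in ETOH cells. Most of the gap in brown adipocyte markers was Elovl3, a fatty acid elongase, with 564 TMM-scaled CPM in 4-OHT and 93.8 in ETOH cells (log2 ratio 2.59). The log2 ratios of Cidea, Cox7a1, Ppargc1a and Prdm16 were 0.82, 0.62, 0.53 and 0.31. Those of Ucp1, Cox8b and Dio2 were 0.16, 0.02 and -0.11. Of the 8 genes of that list, 7 were higher in 4-OHT cells, with a median log2 ratio of 0.42. Macrophage markers summed to 2152 CPM in 4-OHT and 3810 in ETOH cells, with all 10 genes lower in 4-OHT cells and none at 0. Fibroblast and preadipocyte markers summed to 10833 CPM in 4-OHT and 12433 in ETOH cells, with 6 of 7 measured genes lower, and endothelial markers to 7.39 in 4-OHT and 11.2 in ETOH cells. The part of this difference in the higher ratios of the 10 genes was not tested.

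In the siRNA experiment none of the 10 genes passed the test. Over all genes 0.0394% were called by limma, 0.0328% higher and 0.00657% lower, and 5.06% had an unadjusted p below 0.05, which was met by 0 of the 10 genes, and edgeR and DESeq2 called 0 of the 10 as well. The median log2 fold change of the 10 genes was -0.04, with 4 above 0 and 6 below, beside 0.00 over all genes. Both siSetdb1 libraries were above siNC for Plin2 and Plin5 and below it for Plin1, Plin4, Pnpla2 and Lipe, while 34.1% and 33.8% of all genes tested did so, or 68.0% on either side. The siNC group is 1 library, assumed to vary like the siSetdb1 libraries. Macrophage markers had a median log2 fold change of -0.68 in siSetdb1 cells, with 7 of 9 measured genes lower. Fibroblast and preadipocyte markers had a median of -0.21, with 8 of 9 measured genes lower, and adipocyte markers one of -0.04. No gene of these 3 lists was called, and the part of these cell types was not tested.

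G0s2, called in BAT, read 8891 and 8335 normalised counts in siSetdb1, against 8420 in siNC cells, on both sides of it. Its log2 fold change was 0.03 with a 95% interval from -0.20 to 0.27, or up to 1.20-fold, beside 1.88-fold in BAT, and the difference between the experiments was not tested. Abhd5 read 2729 and 3166 normalised counts in siSetdb1, against 3008 in siNC cells (log2 fold change -0.03, 95% interval -0.30 to 0.23). Pnpla2 read 43675 and 45590 in siSetdb1, against 46293 in siNC cells (-0.05, 95% interval -0.31 to 0.21). The intervals of all 3 genes hold 0. G0s2 for every 100 TPM of Pnpla2 was 70.6 and 63.4 in siSetdb1, against 63.1 in siNC cells.

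Lipe read 21929 and 21632 normalised counts in siSetdb1, against 22859 in siNC cells, slightly lower in both. Mgll read 5755 and 6834 in siSetdb1, against 6683 in siNC cells, and its siSetdb1 libraries lay on both sides of siNC. Cidec did the same, with 4216 and 5464 in siSetdb1, against 4306 in siNC cells, and on the log2 scale the gap between its siSetdb1 libraries, -0.03 and 0.34 from siNC, was the widest of the 10 genes.

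Among the perilipins, Plin1 read 25412 and 25987 normalised counts in siSetdb1, against 29576 in siNC cells, lower in both (log2 fold change -0.20, 95% interval -0.45 to 0.04; limma, adjusted p = 0.941). Plin4 read 8624 and 9329 in siSetdb1, against 9896 in siNC cells, also lower in both (-0.14, 95% interval -0.38 to 0.09). Plin2 read 15937 and 15248 in siSetdb1, against 14142 in siNC cells, and was higher in both (0.14, 95% interval -0.09 to 0.38). Plin5 was higher in both too, with 3548 and 3557 in siSetdb1, against 3111 in siNC cells (0.19, 95% interval -0.04 to 0.42). Every interval of the perilipins holds 0. No gene of the other 4 lists was called by limma in this experiment, though Hcar2, a receptor that restrains lipolysis, was called higher by edgeR (adjusted p = 0.0335), and their median log2 fold changes lay between -0.06 and 0.02.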

How the data were processed

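RNA was enriched with oligo(dT) beads and read on an Illumina NovaSeq, per the labels. Named in the submitters' processing notes, with no order, are the build GRCm38, DESeq2 1.36.0, featureCounts 2.0.3, STAR 2.7.10a and Trimmomatic 0.39. Strand setting and handling of multiply mapped reads are not given in the sources used here, so reads of a gene and of an antisense gene over it cannot be told apart. The deposited BAT and siRNA tables hold a signal, the read count times 1 factor per library. The deposited 4-OHT table holds the raw count, the authors' scaled signal and their FPKM (count per length and depth, not used here). The authors' p-value and log2 fold change are printed only where named as theirs.

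Dividing the signal by its step gave back the reads, with 100.0% of values within 0.05 reads of a whole number. The siRNA tables were joined through siNC, whose reads were equal in 19381 genes. The main test was limma 3.58.1 (R 4.3.3; lmFit, eBayes with trend) on log2(normalised count + 1), a scale that understates changes of low genes, for genes with at least 10 normalised counts in 2 BAT libraries or 1 siRNA library. P-values were adjusted by Benjamini-Hochberg over all genes and called below 0.05. TPM was computed from reads and the gene lengths of the tables. The 4-OHT ratios used edgeR 4.0.16 TMM factors and a prior count of 2. Alternatives were edgeR quasi-likelihood and DESeq2 1.42.0 on recovered reads, other pseudocounts, filters and scalings, a replicate block and leaving out each library. The pipeline was tested on simulated data. The 10 genes, the 4 pathway lists and the marker lists were chosen with earlier results of these data known. All 10 genes were named, and of each list the called genes, the 2 with the smallest p in BAT and the 2 with the highest mean CPM in the 4-OHT experiment. Npr1, Npr3, Hcar1, Hcar2 and Ptger3 were named besides.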

Additional observations from a re-analysis of the deposited data

Results flagged for a closer look

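In normalised counts, Pnpla2 and Lipe lay on opposite sides of control in tissue and in siRNA cells. For Pnpla2 both Setdb1 AKO mice lay above both control mice (log2 fold change 0.12), while both siSetdb1 libraries lay below siNC (-0.05). For Lipe both Setdb1 AKO mice lay above both control mice (0.25), while both siSetdb1 libraries lay below siNC (-0.07). Neither value passed a test in its own experiment, and the difference between the experiments was not tested. Over all genes, 25.1% had both Setdb1 AKO mice above both controls, and 33.8% had both siSetdb1 libraries below siNC. In CPM, Pnpla2 overlapped in BAT, with 3912 and 3693 in Setdb1 AKO against 3786 and 3647 in control. Lipe overlapped there too, with 1548 and 1866 against 1661 and 1372. Pnpla2 lay on both sides of siNC in CPM (2432 and 2545 in siSetdb1, 2540 in siNC). Lipe stayed below siNC (1221 and 1207 against 1254).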

How the results depend on the processing

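In BAT, the 10 genes kept their direction under every alternative, except that with 1 mouse left out Plin5 ran from -0.03 (without Setdb1 AKO 1) to 0.32, Plin2 from 0.00 (just below 0, without control 1) to 0.18 and Plin4 from -0.18 to 0.05 (without control 2). The genes called in all numbered 243 (145 higher, 98 lower), and 11 with no filter on low values, 651 with DESeq2 and 22 to 157 with 1 mouse left out; scaling to CPM gave 126 higher and 135 lower and a median of the 10 genes of 0.06 in place of 0.15, where that of all genes was -0.08 in place of 0.01. Of the 10 genes, 0 were called with no filter, 2 with DESeq2, 0 with the replicate block and 0 with any mouse left out, where the median ran from 0.08 to 0.21. With the replicate number as a block, G0s2 had a limma adjusted p of 0.0517 and 299 genes were called in all. Deviations of same-numbered mice had a correlation of -0.02 over 14466 genes, so the numbers give no pairing. In the siRNA experiment 6 genes were called in all, and 0 with no filter, 29 with a filter of 50, 19 with TMM scaling, 55 with CPM scaling, 37 with edgeR and 11 with DESeq2; the median of the 10 genes ran from -0.07 to 0.01 with 1 siSetdb1 library left out. No paired analysis was possible in the cells because siNC, 4-OHT and ETOH carry no replicate number. In the 4-OHT experiment CPM without TMM gave a median of 0.40 in place of 0.47. The causes of these moves were not tested. 1 library a group allows no test in the 4-OHT experiment.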

Other observations

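Some receptors that restrain lipolysis, and a receptor that drives it, had some of the higher values among the pathway genes of the cultured cells. Other restraining receptors did not do so in both cultures. Adora1 had a log2 ratio of 1.09 in the 4-OHT experiment. In siSetdb1 cells Adora1 read 398 and 649.7 normalised counts, on both sides of 525 in siNC cells (log2 fold change -0.05). Ptger3, of the same list, had 0.23 in the 4-OHT experiment and 0.08 in the siRNA experiment. Hcar2, the receptor for niacin and ketone bodies, and Npr1, the receptor for natriuretic peptides, are named here after their values were seen. Hcar2 read 224 and 242 normalised counts in siSetdb1, against 111 in siNC cells, a log2 fold change of 1.07 that did not pass (limma, adjusted p = 0.224) and that ran from 1.01 to 1.13 over the alternatives. It was called with a filter of 50 (limma, adjusted p = 0.0411), with CPM scaling (limma, adjusted p = 0.00944) and by edgeR (adjusted p = 0.0335), but not by DESeq2. In the 4-OHT experiment Hcar2 had 11.7 TMM-scaled CPM in 4-OHT and 5.82 in ETOH cells, a log2 ratio of 1.00. In BAT it read 136 and 196 normalised counts in Setdb1 AKO, against 159 and 86.2 in control, which overlapped.

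Npr1 read 141 and 132 normalised counts in siSetdb1, against 71.0 in siNC cells, a log2 fold change of 0.93 that did not pass (limma, adjusted p = 0.647). It had 11.7 TMM-scaled CPM in 4-OHT and 4.54 in ETOH cells, and a log2 ratio of 1.29 to 1.37 over the alternatives, without replicates. In BAT it read 1133 and 1013 normalised counts in Setdb1 AKO, against 1165 and 1110 in control, with a log2 fold change of -0.09. Hcar1, the lactate receptor, read 1288 and 1250 normalised counts in siSetdb1, against 928 in siNC cells (log2 fold change 0.45; limma, adjusted p = 0.633), and had a log2 ratio of 1.05 in the 4-OHT experiment. Its BAT values of 290.2 and 296 in Setdb1 AKO and 616 and 280.0 in control overlapped. How these genes differ between tissue and cells was not tested.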
